A study of Mus musculus with 12 samples.

Results

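The genes described here are 10 factors of spermatogonial stem cells, the dividing germ cells that sustain sperm production. They were chosen by symbol from a list that had been drawn up with earlier results of these data known. The list holds 8 genes placed with the germ cells, which are Gfra1, Ret, Zbtb16, Lin28a, Nanos2, Nanos3, Sall4 and Id4, and 2 genes placed with the supporting cells, Gdnf and Etv5. All 10 were measured among the 19938 genes of the adult arrays. On the newborn arrays 8 were measured among 18194 genes, and Nanos2 and Nanos3 were not analysed there. Each gene was read from its brightest probe set, by the mean over the arrays of a table.

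The study asked how loss of Foxl2, which encodes a forkhead protein of ovarian granulosa cells, alters the mouse ovary. In the adult set each of 8 arrays came from 1 animal aged 8 weeks, with 2 wild-type ovaries, 3 Foxl2 mutant ovaries labelled Foxl2 flox/flox x CreEBD, and 3 wild-type testes. At postnatal day 3 (P3), the newborn set, there were 4 arrays, with 2 wild-type and 2 Foxl2 knockout (KO) ovary samples, each pooled from more than 10 females. The promoter that drives the Cre transgene, the time at which it acted, the allele behind the KO label and the strain of the mice were all not stated in the labels used here. Every array is of a whole organ, or of a part of one testis, so a lower value can come from fewer cells of a type or from less RNA per cell, and these cannot be told apart.

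In the testis, Sertoli cells secrete GDNF, the ligand of a receptor made of the binding subunit GFRA1 and the tyrosine kinase RET on undifferentiated spermatogonia. Signalling through this receptor favours self-renewal and raises the transcription of Id4 and Etv5 in cultured spermatogonia. The zinc finger proteins encoded by Zbtb16 (also called PLZF) and Sall4 are transcription factors of the undifferentiated cells, Lin28a encodes an RNA-binding protein that blocks maturation of let-7 microRNAs, and Nanos2 and Nanos3 encode RNA-binding repressors of germ cell differentiation. ETV5, an ETS family transcription factor, acts in the Sertoli cells of the niche and in the germ cells themselves. Several of these genes are also active in the ovary, Sall4, Lin28a and Nanos3 among them, in oocytes or in their precursors.

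The genotype was visible on the arrays. The Foxl2 RMA level, a normalized log2 intensity, read 8.75 and 8.81 in adult wild-type ovaries, 5.81, 6.04 and 5.73 in mutant ovaries and 5.22 to 5.38 in testes. At P3 the wild-type pools gave linear MAS5 signals of 814.5 and 829.9 for Foxl2, and the KO pools 186.4 and 153.7. Arrays of one group correlated at r = 0.969 to 0.996 across genes. In these 2 ovaries the RNA of other cell types differed: 12 of 13 oocyte markers were higher in wild-type ovary 1, by a median of 1.98 on the log2 scale. Of 8 general germ cell markers, 6 were higher in that ovary as well. Granulosa cell markers were also higher there, 8 of 9, by a median of 0.83. Values without one of these ovaries are given below for members against wild-type ovary, and for some list genes. They are given where they change a call or move a called value by over 1.5 times. In testis against wild-type ovary, Fgf8, Sox3, Pax7, Eomes, Tspan8 and Foxc2 also lost their call in such a fit. Fold changes are differences of mean log2 values with the standard error (SE) of the limma fit, and a difference passed where its p, adjusted by Benjamini-Hochberg over every gene of the table, was under 0.05.

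Loss of Foxl2 in the adult was accompanied by higher levels of 2 of the 10 factors, the supporting cell gene Etv5 and the germ cell gene Id4. Gdnf and the other 7 germ cell genes did not pass. Over all genes, 9.55% were called higher in mutant ovaries, 6.66% were called lower and 16.2% were called in either direction. The share of members called, 2 of 10, is close to that background, and their median difference was -0.05, against -0.02 over all genes. Mutant and wild-type ovaries did not overlap for 3 of the 10 members, against 39.9% of all genes, and 28.9% of all genes had an unadjusted p under 0.05.

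The level of Etv5 was 5.92 and 5.67 in wild-type ovaries 1 and 2, 7.23, 7.21 and 7.61 in mutant ovaries 1 to 3, and 6.64, 6.74 and 6.66 in the testes. The 3 groups did not overlap, the mutant ovaries being highest and the wild-type ovaries lowest. Etv5 rose by 1.56 ± 0.15 (SE, n = 3 and 2, adjusted p = 8.18e-05) in mutant over wild-type ovary, which is 2.94-fold. It was also higher by 0.67 ± 0.14 in mutant ovary than in testis (n = 3 and 3, adjusted p = 0.0014), and by 0.89 ± 0.15 in testis than in wild-type ovary (n = 3 and 2, adjusted p = 4.84e-04). These values may not all come from the Etv5 locus. Etv5 lies on chromosome 16, but the 16 annotated probe sets numbered next to the one used are all of genes on chromosome 10, whereas 15 of the 16 next to a dimmer, second Etv5 probe set are of genes on chromosome 16. The platform annotation gives the same transcripts for both, and where the brighter one maps was not tested. The second probe set, examined after its values were seen, gave 5.72 and 5.22 in wild-type ovaries, 6.77, 6.56 and 6.96 in mutant ovaries, and 5.76, 6.03 and 6.09 in testes. It kept the order of the groups without overlap, and all 3 differences passed, at 1.30 ± 0.19 (adjusted p = 9.94e-04), 0.80 ± 0.17 (adjusted p = 0.00162) and 0.49 ± 0.19 (adjusted p = 0.0430) in the sequence just given. The related gene Etv1, of the same ETS subfamily, rose by 0.93 ± 0.15 in mutant ovary (adjusted p = 0.00178), whereas Etv4 did not pass.

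For Id4 the wild-type ovaries read 6.18 and 6.38, mutant ovaries 1 to 3 read 7.01, 7.36 and 7.42, and the testes read 8.34, 8.35 and 8.52. The groups were again fully apart, but here the testes were highest. Id4 encodes a protein that pairs with basic helix-loop-helix factors and keeps them off DNA. In mutant ovary it rose by 0.98 ± 0.15 over wild type (SE, n = 3 and 2, adjusted p = 0.00134), a 1.97-fold difference. In testis it was higher than in wild-type ovary by 2.12 ± 0.15 (adjusted p = 4.68e-07), and mutant ovary lay below testis at -1.14 ± 0.13 (adjusted p = 2.14e-05). The other inhibitor genes of this family took the opposite direction in testis, with Id1, Id2 and Id3 at -1.27 ± 0.16, -3.47 ± 0.33 and -3.01 ± 0.22 against wild-type ovary. In mutant ovary Id3 fell by 0.81 ± 0.22 (adjusted p = 0.0292), which did not pass without wild-type ovary 1 (-0.64, adjusted p = 0.122), and Id1 and Id2 did not pass. The calls of Etv5 and Id4 held in every alternative fit that was run, including those without wild-type ovary 1 or without wild-type ovary 2. For Etv5 these fits used the brighter probe set or the mean of both, and the second was fitted alone only with all arrays.

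Markers of several cell types moved in the same samples. Of 11 measured Sertoli cell markers 9 rose in mutant ovary, among them Sox9 by 3.68 ± 0.14 and Dmrt1 by 2.69 ± 0.15. The mean level of the 11 markers was 5.53 to 6.09 in wild-type ovaries, 8.17 to 8.57 in mutant ovaries and 6.84 to 6.95 in testes. This is the order seen for Etv5, with mutant ovary above testis, and not the order seen for Id4. Of 9 granulosa cell markers 7 fell in mutant ovary, with a median of -2.92, as did 6 of 8 endothelial and smooth muscle markers, with a median of -1.20. Of 7 leukocyte markers 2 rose, and the median was 0.35. The part of these cell types in the differences of Etv5 and Id4 was not tested.

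**Figure D1:**
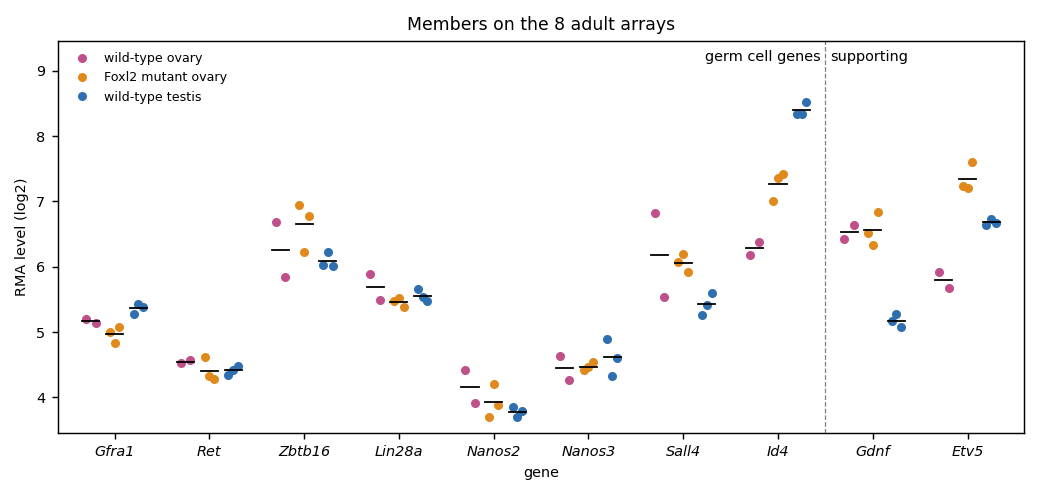
RMA level (log2) of the 10 members on each of the 8 adult arrays, with a dot per animal and a bar at the group mean (2 wild-type ovaries, 3 Foxl2 mutant ovaries, 3 wild-type testes). Etv5 and Id4 separate the 3 groups, Gdnf separates testis from both kinds of ovary, and the other germ cell genes lie close together, with wide gaps between the 2 wild-type ovaries for Sall4 (6.82 and 5.53) and Zbtb16 (6.68 and 5.85).

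The promoters of Etv5, Id4 and Gdnf, the members with the clearest differences between adult groups, are shown to let their sequences be compared. Windows of 250 bases before to 50 bases after a transcription start were taken from RefSeq on build GRCm38.p6, which listed 7 of the 10 members. Where a gene had several starts, the most upstream one is printed. Capitals mark the forkhead core GTAAACA, searched on both strands, and the E-box CANNTG, the motif of basic helix-loop-helix factors, which reads alike on both strands. The windows are chr16:22439521-22439820 on the minus strand for Etv5, chr13:48260866-48261165 on the plus strand for Id4 and chr15:7809798-7810097 on the plus strand for Gdnf.
Etv5: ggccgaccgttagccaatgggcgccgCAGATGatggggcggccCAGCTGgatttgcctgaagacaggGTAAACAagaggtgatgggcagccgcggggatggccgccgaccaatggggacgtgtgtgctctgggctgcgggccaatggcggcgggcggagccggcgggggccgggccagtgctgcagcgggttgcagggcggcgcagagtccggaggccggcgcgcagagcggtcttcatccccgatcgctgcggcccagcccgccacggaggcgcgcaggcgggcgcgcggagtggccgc
Id4: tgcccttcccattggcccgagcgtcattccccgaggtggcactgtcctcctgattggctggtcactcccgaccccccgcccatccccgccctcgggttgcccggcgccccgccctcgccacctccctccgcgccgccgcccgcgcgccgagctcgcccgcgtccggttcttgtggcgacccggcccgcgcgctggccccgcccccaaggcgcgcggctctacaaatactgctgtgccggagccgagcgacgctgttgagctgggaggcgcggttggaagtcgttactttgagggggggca
Gdnf: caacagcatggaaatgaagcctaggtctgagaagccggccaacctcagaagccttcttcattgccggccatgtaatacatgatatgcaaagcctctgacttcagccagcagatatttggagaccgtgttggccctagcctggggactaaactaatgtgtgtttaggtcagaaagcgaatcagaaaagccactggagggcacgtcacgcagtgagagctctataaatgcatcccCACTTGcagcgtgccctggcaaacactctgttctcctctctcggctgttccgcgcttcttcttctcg
The Etv5 window held 1 forkhead core, which began 183 bases before the start, and 2 E-boxes. Of all 32851 windows of this length 3.65% held the forkhead core and 72.3% an E-box. The Id4 window held neither motif, and the Gdnf window held 1 E-box, 17 bases before the start. No forkhead core was present in the other windows of the 7 members. The windows of Etv5 and Id4 were rich in G and C, at 74.0% and 73.3% against a median of 52.7% over all windows, and that of Gdnf had 51.7%. Foxl2 binding was not measured in these data, and a match of letters is not a binding site.

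Gdnf, the ligand, set testis apart from ovary but did not follow the Foxl2 genotype in adults. Its level was 6.43 and 6.64 in wild-type ovaries, 6.51, 6.34 and 6.83 in mutant ovaries, and 5.17, 5.28 and 5.08 in testes. The mutant and wild-type ovaries overlapped, and every testis lay below every ovary. The difference between mutant and wild-type ovary was 0.03 ± 0.16 (SE, n = 3 and 2, adjusted p = 0.938), with a 95% interval from -0.34 to 0.39. In testis Gdnf was lower than in wild-type ovary at -1.36 ± 0.16 (n = 3 and 2, adjusted p = 3.4e-05), a 2.56-fold difference, and mutant ovary was higher than testis by 1.38 ± 0.15 (n = 3 and 3, adjusted p = 1e-05). Most other genes listed as growth factors of the stem cell niche lay on the same side. Of 9 measured genes listed as niche ligands, 8 were lower in testis than in wild-type ovary. The remaining gene, Gfer, was higher by 1.78 ± 0.17, and whether it acts as a niche ligand was not tested. The median of the list was -1.73, against -0.15 over all genes, of which 60.3% were called. The largest differences were those of Wnt5a (-3.49 ± 0.17), Vegfa (-2.84 ± 0.30), Igf1 (-2.16 ± 0.28), Kitl (-2.07 ± 0.15) and Cxcl12 (-1.73 ± 0.30). Fgf8, at -0.50 with both wild-type ovaries, stood at -0.31 without wild-type ovary 1. In the same testes 12 of 12 spermatocyte and spermatid markers were higher than in wild-type ovary, their mean level being 10.62 to 10.71 against 3.83 to 3.89. Lower in testis than in wild-type ovary were 9 of 9 granulosa cell markers (median -3.77), 7 of 8 endothelial and smooth muscle markers (median -2.11) and 6 of 7 leukocyte markers (median -0.90). The part of these cell types in the low values of the niche ligands was not tested.

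In mutant ovary, 2 of the 9 niche ligands rose, Kitl by 1.22 ± 0.15 (adjusted p = 3.92e-04) and Fgf2 by 0.48 ± 0.12 (adjusted p = 0.0203). Over all genes 9.55% were called higher and 6.66% lower. Kitl encodes the ligand of KIT, a receptor of differentiating spermatogonia and of oocytes, and Fgf2 a fibroblast growth factor that supports spermatogonial cultures. Without wild-type ovary 1 the count was 3 higher and 2 lower, and without wild-type ovary 2 it was 1 higher, Fgf2 (0.46, adjusted p = 0.0729) no longer passing.

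The GDNF receptor genes did not follow Gdnf. The level of Gfra1 was 5.20 and 5.14 in wild-type ovaries, 4.99, 4.83 and 5.08 in mutant ovaries, and 5.27, 5.43 and 5.39 in testes. All 3 groups were apart, although the whole range from lowest to highest array was narrow. Gfra1 lay between the 38.7 and 49.7 percentiles of genes on these arrays, and Foxl2 in testes between 46.2 and 48.8. The Gfra1 difference passed between mutant ovary and testis, at -0.39 ± 0.12 (SE, n = 3 and 3, adjusted p = 0.0137). Without testis 2 it was -0.36 and did not pass (adjusted p = 0.0534), the range over the alternatives being 0.00619 to 0.0534. Neither the mutant ovaries (-0.20 ± 0.13, adjusted p = 0.359) nor the testes (0.19 ± 0.13, adjusted p = 0.241) passed against wild-type ovary.

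The level of Ret was 4.52 and 4.56 in wild-type ovaries, 4.61, 4.32 and 4.28 in mutant ovaries, and 4.33, 4.42 and 4.49 in testes. Mutant ovaries overlapped both other groups, and no difference passed, the values being -0.14 ± 0.14 for mutant against wild-type ovary, -0.13 ± 0.14 for testis against wild-type ovary and -0.01 ± 0.12 for mutant ovary against testis. Ret lay between the 29.7 and 36.0 percentiles of genes on these arrays. Markers of Schwann cells and neurons, which also use RET and GFRA1, stood at a mean of 4.67 to 4.78 in wild-type ovaries and 5.04 to 5.17 in mutant ovaries, where 1 of 7 rose, Tubb3 by 2.71 ± 0.24. The higher mean rests on Tubb3, the median change of the 7 being 0.02.

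Of 9 other genes of the GDNF family, its receptors and its coreceptors, limma called 0 in mutant against wild-type ovary, with 1 at an unadjusted p under 0.05, and without wild-type ovary 1 it called 1 lower. In testis, compared with wild-type ovary, 2 were higher and 1 was lower. Over all genes 16.2% were called in mutant and 60.3% in testis against wild-type ovary. Gfra2, which binds neurturin, was higher by 0.98 ± 0.18 (adjusted p = 7.80e-04) and Gfra4, which binds persephin, by 0.50 ± 0.13 (adjusted p = 0.00714). Sdc3, a syndecan that binds GDNF, was lower at -1.41 ± 0.22 (adjusted p = 2.27e-04). Against testis, mutant ovaries had less Gfra2 (-0.66 ± 0.16) and Gfra4 (-0.60 ± 0.12) and more Sdc3 (0.78 ± 0.20).

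Genes known to respond to GDNF in cultured spermatogonia, other than the members Id4 and Etv5, were called in mutant ovary at a share near the background. Of 7 measured, 1 was called, beside 16.2% of all genes. This was the chemokine receptor gene Cxcr4, which rose by 1.12 ± 0.30 (adjusted p = 0.0291). Cxcr4 stood at 6.81 and 8.06 in wild-type ovaries 1 and 2 and at 8.36 to 8.87 in mutant ovaries, so that its rise was 1.74 (adjusted p = 1.39e-04) without wild-type ovary 2 and 0.50 (adjusted p = 0.110), no longer past the threshold, without wild-type ovary 1. Bcl6b, a transcriptional repressor, was at -0.62 ± 0.23 (adjusted p = 0.106), and the homeobox gene Lhx1 was at 0.06 ± 0.13 (adjusted p = 0.812). Without wild-type ovary 1 the count was 1 higher and 1 lower. Over all genes 60.3% were called in testis against wild-type ovary. In testis 4 of the 7 were lower than in wild-type ovary and 1 was higher, with Mycn at -1.73 ± 0.30, Egr2 at -1.17 ± 0.25, Cxcr4 at -1.17 ± 0.30, Bcl6b at -0.72 ± 0.23 and Egr3 at 0.39 ± 0.14. Without wild-type ovary 2 this count was 3 lower and 0 higher, Bcl6b (-0.43, adjusted p = 0.172) and Egr3 (0.32, adjusted p = 0.147) no longer passing and Cxcr4 and Egr2 standing at -0.54 and -0.69. Mycn and Cxcr4 stood at -1.15 and -1.79 without wild-type ovary 1.

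**Figure D2:**
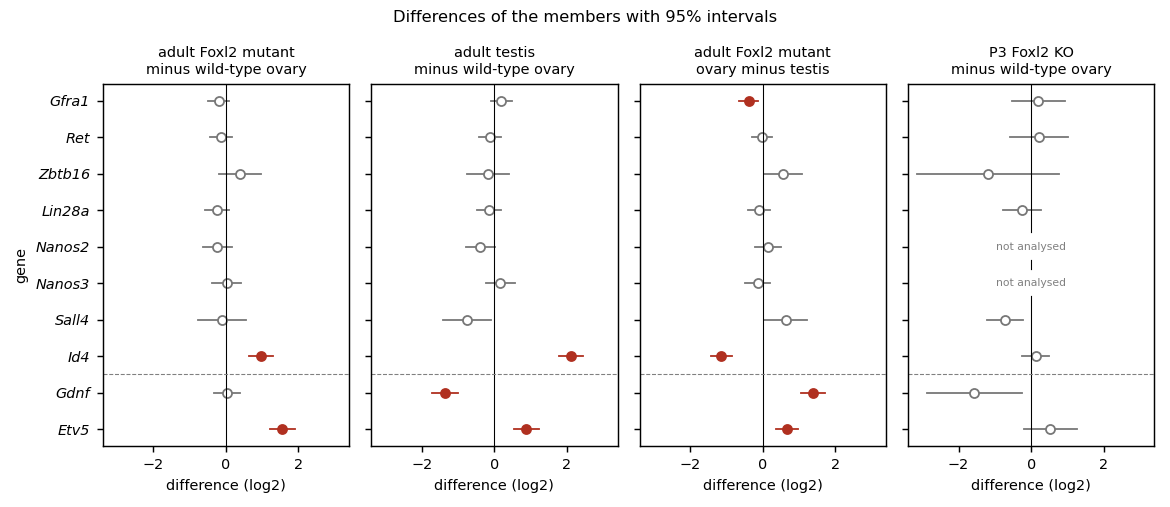
Difference of each member on the log2 scale (x axis) in the 3 adult comparisons and the P3 comparison, with its 95% interval from the limma fit; filled red points passed at adjusted p under 0.05. Etv5 and Id4 passed in all 3 adult comparisons Gdnf in those with testis and Gfra1 between mutant ovary and testis, and no member passed at P3.

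Among the transcription factors, Sall4 and Zbtb16 were the members in which the 2 wild-type ovaries differed most. The level of Sall4 was 6.82 and 5.53 in wild-type ovaries 1 and 2, 6.08, 6.19 and 5.92 in mutant ovaries, and 5.27, 5.41 and 5.60 in testes. The wild-type ovaries enclosed all 3 mutant ovaries, and wild-type ovary 2 lay among the testes. Only 1.96% of genes differed as much between the wild-type ovaries as Sall4, whose gap was 1.28. No call was made with both ovaries, the difference being -0.11 ± 0.30 for mutant and -0.75 ± 0.30 for testis against wild-type ovary (adjusted p = 0.854 and 0.0505). Against wild-type ovary 1 alone, Sall4 was lower in mutant ovary (-0.76, adjusted p = 0.0165) and in testis (-1.39, adjusted p = 5.12e-05), and against wild-type ovary 2 alone it was at 0.53 and -0.11 (adjusted p = 0.0727 and 0.649). Over all alternatives the adjusted p ran from 0.0165 to 0.961 for mutant ovary and from 5.12e-05 to 0.649 for testis. These calls against wild-type ovary thus depend on which wild-type ovary is used. Mutant ovary against testis stood at 0.64 ± 0.27 (adjusted p = 0.0610) and did not pass, although these groups did not overlap. The fit shares its spread over the 3 groups, and the SD of Sall4 was 0.91 in wild-type ovaries, 0.14 in mutant ovaries and 0.16 in testes.

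The mean level of 13 oocyte markers was 7.20 in wild-type ovary 1, 5.61 in wild-type ovary 2, 6.83 to 7.05 in mutant ovaries and 4.30 to 4.42 in testes. Sall4, which oocytes express, was likewise highest in wild-type ovary 1, lowest in wild-type ovary 2 among ovaries, and between them in the mutant ovaries. With both wild-type ovaries limma called 0 of 13 oocyte markers in mutant ovary, with 1 at an unadjusted p under 0.05. Without wild-type ovary 1 it called 11 higher, and without wild-type ovary 2 it called 2 lower. The part of oocyte content in the values of Sall4 was not tested.

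The level of Zbtb16 was 6.68 and 5.85 in wild-type ovaries, 6.95, 6.22 and 6.78 in mutant ovaries, and 6.03, 6.22 and 6.01 in testes. Again the wild-type ovaries spanned most of the values, and mutant ovary 2 lay near the testes. Zbtb16 did not pass in mutant (0.39 ± 0.26, adjusted p = 0.374) or testis (-0.17 ± 0.26, adjusted p = 0.592) against wild-type ovary. Without wild-type ovary 1 it passed in mutant ovary (0.81, adjusted p = 0.0442), and over all alternatives its adjusted p ran from 0.0442 to 0.960. Mutant ovary against testis stood at 0.56 ± 0.23 (adjusted p = 0.0579) and passed in 5 of 15 alternatives.

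**Figure D3:**
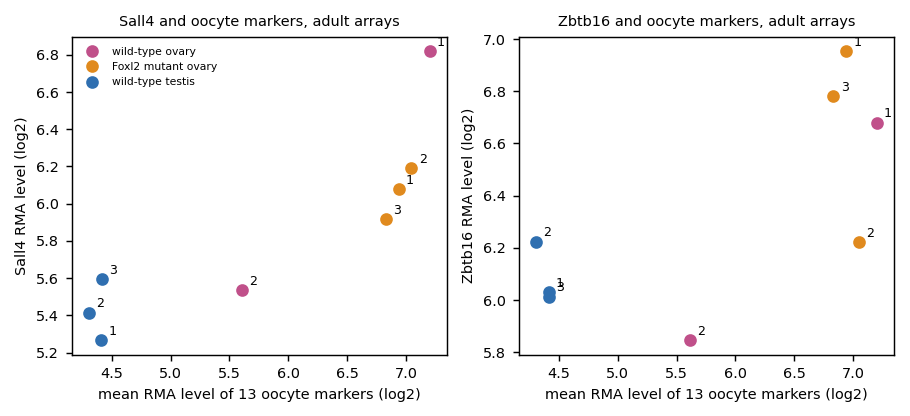
RMA level (log2) of Sall4 (left) and Zbtb16 (right) on the y axis against the mean RMA level (log2) of 13 oocyte markers on the x axis, with a dot per adult array labelled by its replicate number. The wild-type ovaries stand at 7.20 and 5.61 on the x axis, the mutant ovaries at 6.83 to 7.05 and the testes at 4.30 to 4.42; Sall4 falls in that order over the ovaries, and Zbtb16 in mutant ovary 2 (6.22) lies below the other mutant ovaries.

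The RNA-binding factors showed no difference that passed in any adult comparison. The level of Lin28a was 5.89 and 5.50 in wild-type ovaries, 5.47, 5.52 and 5.39 in mutant ovaries, and 5.66, 5.53 and 5.47 in testes. The groups overlapped throughout, and Lin28a differed by -0.24 ± 0.15 in mutant and -0.14 ± 0.15 in testis against wild-type ovary. Lin28a, without wild-type ovary 1 and 2 in turn, stood at -0.04 and -0.43 in mutant ovary (adjusted p = 0.912 and 0.0995). Its paralogue Lin28b, in contrast, was higher in testis than in wild-type ovary by 1.38 ± 0.12 (adjusted p = 3.07e-06) and lower in mutant ovary than in testis at -1.53 ± 0.11 (adjusted p = 4.46e-07). No testis had a Lin28b level below 4.74, and no ovary one above 3.53.

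The level of Nanos2, a marker of the most primitive spermatogonia, was 4.41 and 3.92 in wild-type ovaries, 3.70, 4.20 and 3.88 in mutant ovaries, and 3.85, 3.70 and 3.79 in testes. The testes were thus the lowest group, at -0.38 ± 0.18 against wild-type ovary (adjusted p = 0.0923), and this passed without wild-type ovary 2 (-0.63, adjusted p = 0.0168) and after quantile normalization (adjusted p = 0.0451), with a range up to 0.590. Nanos2 lay between the 19.9 and 32.4 percentiles of its arrays. The level of Nanos3 was 4.63 and 4.27 in wild-type ovaries, 4.42, 4.46 and 4.54 in mutant ovaries, and 4.90, 4.33 and 4.61 in testes. Its groups overlapped in every comparison, with 0.02 ± 0.18 for mutant and 0.16 ± 0.18 for testis against wild-type ovary.

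As a set, the 8 germ cell genes were not raised in whole adult testis. Against wild-type ovary, 1 of the 8 was called higher in testis, Id4, and 0 were called lower, beside 24.4% of all genes called higher and 35.9% lower. Of all 10 members 3 were called and 6 did not overlap between these groups, against 60.3% and 73.8% of all genes. Their median difference was -0.13. The 95% intervals of the 7 that did not pass lay between -1.42 and 0.56, so a 2-fold rise of the array level in testis lies outside each of them. Some of the 7 were dim in testis, with Nanos2 at the 19.9 to 21.7 percentiles of genes and Ret at 29.7 to 32.7. Whether a 2-fold rise of RNA would show in full at such levels was not tested. By comparison 7 of 8 general germ cell markers, such as Ddx4 and Dazl, were higher in testis, with a median of 3.62. Spermatocyte and spermatid markers had a mean level of 10.62 to 10.71 in the same testes. A whole testis mixes the RNA of these cells with that of spermatogonia. The levels therefore cannot show whether the 8 genes mark stem cells. In mutant against wild-type ovary the intervals of the 7 germ cell genes that did not pass lay between -0.78 and 0.97, and limma called 0 of the 8 general germ cell markers, with 1 at an unadjusted p under 0.05 and 4 called higher without wild-type ovary 1. Between mutant ovary and testis 2 of the 8 germ cell genes were lower in mutant ovary (Gfra1 and Id4), and both supporting cell genes were higher, where 37.5% of all genes were called higher and 24.3% lower. That is 4 of 10 members called and 5 of 10 not overlapping, against 61.8% and 69.5% of all genes.

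Other markers of undifferentiated spermatogonia went in both directions. Over all genes 24.4% were called higher and 35.9% lower in testis than in wild-type ovary, with a median of -0.15. Of 16 markers measured, 2 were higher in testis than in wild-type ovary, Lin28b and the Polycomb gene Bmi1 (1.16 ± 0.16). Another 9 were lower, and the median of the list was -0.38. The lowest differences were those of Foxo1 (-4.15 ± 0.29), a forkhead factor also abundant in granulosa cells, Shisa6 (-2.60 ± 0.30), the cadherin gene Cdh1 (-1.67 ± 0.34) and Upp1 (-0.78 ± 0.15). In mutant ovary the membrane protein gene Tspan8 rose by 1.57 ± 0.17 (adjusted p = 1.69e-04), whereas Foxo1 and Shisa6 fell by 2.14 ± 0.29 and 1.65 ± 0.30 (adjusted p = 6.86e-04 and 0.00421). Shisa6 stood at 5.82 and 7.10 in wild-type ovaries 1 and 2, and against ovary 1 alone it stood at -1.01 (adjusted p = 0.00489). Without wild-type ovary 1 the count in mutant ovary was 3 higher and 2 lower, and in testis 4 higher and 6 lower. Tspan8 stood at 5.17 and 5.51 in wild-type ovaries, 6.66, 6.96 and 7.10 in mutant ovaries and 4.70 to 4.99 in testes. Sox3, Eomes and Tspan8 differed by -0.44, -0.32 and -0.50 in testis against wild-type ovary. Without wild-type ovary 2 they stood at -0.32, -0.28 and -0.34.

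Of 8 genes of spermatogonial differentiation, 4 were higher in testis than in wild-type ovary and 1, the cyclin gene Ccnd2, was lower (-3.85 ± 0.18). The genes that were higher were Sohlh2 (2.05 ± 0.23), Dmrtb1 (1.49 ± 0.19), Stra8 (0.95 ± 0.13), which responds to retinoic acid at the entry into meiosis, and Rhox13 (0.87 ± 0.17). In mutant ovary Kit rose by 1.59 ± 0.32 (adjusted p = 0.00663) and Ccnd2 fell by 0.86 ± 0.18 (adjusted p = 0.00780). Kit stood at 8.23 in wild-type ovary 1, at 6.77 in wild-type ovary 2 and at 9.03 to 9.13 in mutant ovaries, and without wild-type ovary 2 its rise was 0.86 (adjusted p = 7.38e-04). Of 11 close relatives of the members, 3 were higher in testis than in wild-type ovary, led by Zbtb32 (2.65 ± 0.12), and 4 were lower, which were Id1, Id2, Id3 and Sall2 (-1.06 ± 0.18). Beside the counts of these lists, 60.3% of all genes were called in testis against wild-type ovary. For mutant against wild-type ovary that share was 16.2%.

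Genes with the most similar profile over the 8 adult arrays were named for the 4 members called in an adult comparison, by Pearson correlation with 17498 other genes. These arrays hold 3 groups of animals, so a shared difference between groups is enough for a high r. Slc41a2, Defb19 and Shc4 followed Etv5 most closely (r = 0.995, 0.995 and 0.994), and Defb19 is a β-defensin gene of Sertoli cells. The Etv5 profile used here is that of the brighter probe set, which may not measure the Etv5 locus. Dcun1d3, Cdc14b and Slc30a4 followed Id4 (r = 0.997, 0.993 and 0.993). Gtpbp3, Ctsc and Adamts1 followed Gdnf (r = 0.996, 0.995 and 0.995), and Faap24, Ndc80 and Ints1 followed Gfra1 (r = 0.986, 0.985 and 0.980).

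In newborn ovaries no member passed between KO and wild type. Limma called 0 of the 8 measured members, with 2, Sall4 and Gdnf, at an unadjusted p under 0.05, where 0.324% of all genes were called and 9.53% had such a p. The groups did not overlap for 3 of the 8, against 38.9% of all genes. P3 changes are on the log2(signal + 16) scale, which understates those of dim genes, and were fitted apart from the adult arrays, which used another platform.

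The MAS5 signal of Sall4 was 425.8 and 458.6 in wild type and 254.4 and 270.2 in KO. Both KO pools lay below both wild-type pools, at -0.72 ± 0.21 (SE, n = 2 and 2, adjusted p = 0.310). A dimmer Sall4 probe set, with signals of 9.1 to 59.6, stood at -0.35. Oocyte markers were lower in the same KO pools, with a mean of 11.58 to 11.78 against 12.41 to 12.45 on the log2(signal + 16) scale, and 2 of 12 passed, Oosp1 at -3.04 ± 0.20 and Zp1 at -1.19 ± 0.13. The part of oocyte content in the Sall4 values was not tested. The signal of Lin28a, which also lay lower in both KO pools, was 378.4 and 334.5 in wild type and 307.6 and 282.8 in KO. Its difference was -0.26 ± 0.22 (adjusted p = 0.810). A dimmer Lin28a probe set, with signals of 11.7 to 97.7, stood at -0.95, with overlapping groups.

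The signal of Gdnf was 125.7 and 35.5 in wild type and 14.8 and 10.8 in KO. The KO pools were the lower ones, at -1.57 ± 0.54 (SE, n = 2 and 2, adjusted p = 0.408), but the wild-type pools differed widely from each other. Gdnf lay at the 5.7 and 7.9 percentiles of genes in the KO pools and at the 13.4 and 31.1 percentiles in the wild-type pools. Without wild-type pool 1 the value was -0.84. The signal of Etv5 was 502.6 and 285.5 in wild type and 621.4 and 496.3 in KO. These groups overlapped, at 0.53 ± 0.30 (adjusted p = 0.683), and the other Etv5 probe sets stood at 0.26 and -0.78, so they did not share a direction.

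The signal of Id4 was 911.1 and 868.1 in wild type and 903.3 and 1040.2 in KO, with overlapping groups and a difference of 0.12 ± 0.15 (adjusted p = 0.884). Its 95% interval ran from -0.24 to 0.49. Dimmer Id4 probe sets stood at 0.20 and -0.11. Gfra1 gave 182.2 and 144.8 in wild type and 163.0 and 218.0 in KO (0.20 ± 0.30), and Ret gave 188.9 and 149.8 in wild type and 247.6 and 155.8 in KO (0.21 ± 0.33). Both receptor genes overlapped between genotypes. Dimmer Gfra1 probe sets, with signals of 2.8 to 9.8, stood at -0.24 and 0.14. A dimmer Ret probe set, with signals of 6.0 to 46.8, stood at 0.06. Zbtb16 gave 175.5 and 111.7 in wild type and 12.0 and 149.9 in KO, so KO pool 1 alone was low on this probe set. The fitted difference was -1.20 ± 0.81 (adjusted p = 0.744), and without KO pool 1 it was 0.09. Of the other Zbtb16 probe sets, one gave 133.4 and 71.4 in wild type and 57.9 and 62.7 in KO (-0.58), and another gave 79.6 and 11.3 in wild type and 31.5 and 117.8 in KO (0.64), so the probe sets did not share a direction.

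**Figure D4:**
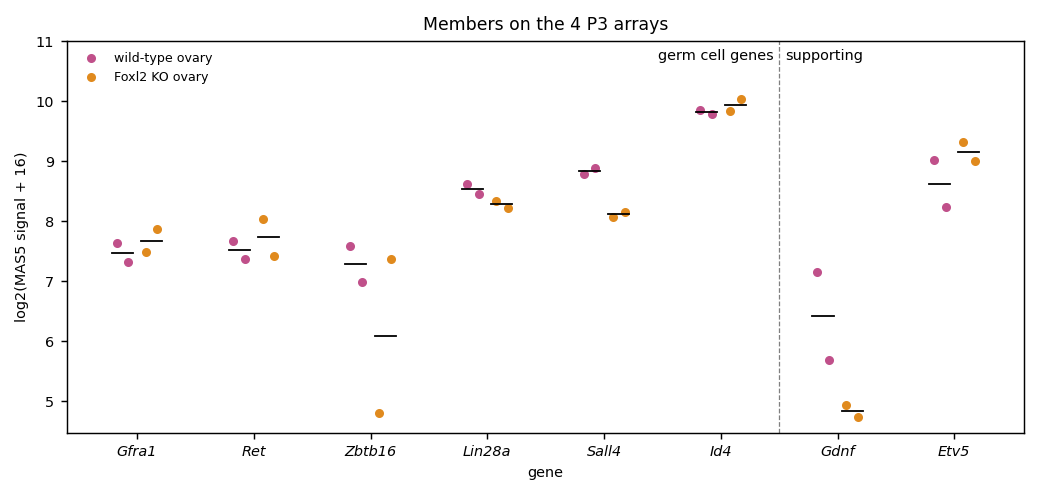
log2(MAS5 signal + 16) of the 8 members measured on the 4 P3 arrays, with a dot per pool and a bar at the group mean (2 wild-type and 2 Foxl2 KO pools). Sall4, Lin28a and Gdnf lie lower in both KO pools, Zbtb16 is low in KO pool 1 alone (signal 12.0), and no member passed.

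Related genes gave 1 call at P3, where 0.324% of all genes were called and 9.53% had an unadjusted p under 0.05. Of 9 niche ligands Cxcl12, the ligand of Cxcr4, fell by 1.64 ± 0.15 (adjusted p = 0.0201), from signals of 2976.5 and 2438.9 in wild type to 842.2 and 863.8 in KO. In the same KO pools 3 of 9 granulosa cell markers fell, with a median of -1.51, and 1 of 5 Leydig and theca cell markers, Hsd3b1, fell by 4.97 ± 0.25. Sertoli cell markers had a mean of 8.38 to 8.41 in KO pools and 7.91 to 8.06 in wild-type pools. Limma called 0 of these 11, with 6 at an unadjusted p under 0.05 and a median of -0.04. The part of these cell types in the Cxcl12 values was not tested. Limma called 0 of 8 genes of the GDNF family and its receptors, 0 of 7 GDNF-responsive genes, 0 of 16 markers of undifferentiated spermatogonia, 0 of 8 genes of spermatogonial differentiation and 0 of 10 relatives of the members, with 2, 2, 3, 0 and 0 at an unadjusted p under 0.05. The rises of Etv5 and Id4 seen in adult mutant ovary had no counterpart that passed at P3, and whether the ages differ was not tested, since platform, labelling and pooling differ with age.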

How the data were processed

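Total RNA of whole ovaries or of part of a testis was biotin-labelled for hybridisation to arrays; adult samples were single animals and P3 samples were pools, per the labels' protocols. The deposited adult values are log2 intensities that the authors made with RMA in the Affymetrix Expression Console, and the deposited P3 values are linear MAS5 signals (intensity), per the submitters' processing notes. The labels name a CodeLink labelling protocol for the P3 samples, although their values are MAS5 signals of Affymetrix probe sets, and this mismatch could not be settled. Tool versions: not given in the sources used here.

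Probe sets were named through the supplied platform annotation and symbols updated through RefSeq (GRCm38.p6, names and promoters only). Of 35557 adult probe sets 21789 had a single gene, 1621 several and 12147 were unnamed here. Of 45101 P3 probe sets the numbers were 34958, 932 and 9211. No coordinates of probe sets are given.

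Fits used limma 3.58.1 in R 4.3.3 (lmFit and eBayes with trend, two-sided, Benjamini-Hochberg over all genes, called under 0.05). The 8 adult arrays were fitted together with 1 mean per group, so the comparisons share arrays, and the 4 P3 arrays alone as log2(signal + 16). The fit was tested on simulated data. For arrays, the number of samples limits the precision. The labels do not say how far the P3 pools of a group are independent, so their p-values measure only the spread between these pools. Alternatives were averaged probe sets, scaling, pseudocounts, a filter on the dimmest 25% of genes, no trend, only the groups compared, a replicate block and each array left out. Counts of gene lists without each wild-type ovary, single list genes likewise, and the second adult Etv5 probe set, were added after seeing the data.

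Members and lists were chosen with earlier results of these data known. Named were the 10 members, Foxl2, up to 6 list genes per comparison that passed, with the largest changes, and the 3 genes most correlated with each adult called member. Marker genes, and list genes that did not pass, are named beside these as context and were chosen after their values were seen.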

Additional observations from a re-analysis of the deposited data

How the results depend on the processing

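Etv5 and Id4 in all 3 adult comparisons, and Gdnf in the 2 with testis, kept direction and call in every alternative. For Etv5 these alternatives used the brighter probe set or the mean of both. The second Etv5 probe set kept direction and call with all arrays in the fit, and no other alternative was run on it alone. With only the groups compared in the fit, 1731 genes passed between mutant and wild-type ovary in place of 3232. The count of members called in testis against wild-type ovary ran from 3 to 5 when single arrays were left out. At P3 the 59 calls over all genes became 204 with the filter on dim genes, 0 with limma without trend (1736 at an unadjusted p under 0.05), 305 with the replicate block, and 0 to 22 when single arrays were left out (1119 to 2590 at an unadjusted p under 0.05); 0 members were called in each of these fits. The P3 count over all genes is thus not stable.

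Signs turned in differences that did not pass with all arrays. When single arrays were left out, mutant against wild-type ovary ran from -0.027 (without wild-type ovary 2) to 0.81 (without wild-type ovary 1) for Zbtb16, from -0.76 to 0.53 for Sall4 and from -0.49 to 0.0097 for Nanos2 between the same omissions. Nanos3 ran from -0.16 (without wild-type ovary 2; -0.010 without mutant ovary 3) to 0.20 (without wild-type ovary 1), and Gdnf from -0.11 (without mutant ovary 3; -0.077 without wild-type ovary 1) to 0.14 (without mutant ovary 2), with -0.0091 after quantile normalization. Of these, Sall4 and Zbtb16 passed in single omissions, as given above. Testis against wild-type ovary ran from -0.59 to 0.24 for Zbtb16, from -0.33 to 0.059 for Lin28a and from -0.014 to 0.34 for Nanos3, without wild-type ovary 2 and 1 respectively. In mutant ovary against testis Nanos3 ran from -0.28 (without testis 2) to 5e-04 (without testis 1), and Ret ran from -0.11 (without mutant ovary 1), turning to 0.026 without testis 3, 0.031 without mutant ovary 2 and 0.052 without mutant ovary 3, and to 0.061 after quantile normalization. At P3, without KO pool 1 and 2, Ret stood at -0.10 and 0.52 and Zbtb16 at 0.085 and -2.48. Where an omission leaves 1 array in a group, that array is assumed to vary like the others.

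The labels give same-numbered samples no link beyond the number, and whether they share a batch is not stated. Deviations of same-numbered mutant ovaries and testes correlated at 0.058 to 0.079, each best with its own number. For same-numbered testes and wild-type ovaries the values were -0.0019 and -0.0028, and for same-numbered wild-type and mutant ovaries 0.068 and -0.0025. Deviations of same-numbered P3 pools correlated at 0.042, and with 2 pools per group the other pairs mirror this at -0.042. With the replicate block, Gdnf in mutant against wild-type ovary was at -0.014, and Zbtb16 in mutant ovary against testis passed (adjusted p = 0.0413). The filter on dim genes removed Nanos2 from the adult fits and Gdnf from the P3 fit, which therefore gave no value there.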
